A study of Mus musculus with 16 samples.

Results

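The urea cycle converts ammonia from amino acid breakdown into urea, and in mammals the whole cycle runs mainly in hepatocytes, with the first steps in the mitochondrion and the later ones in the cytosol. The kidney holds the enzymes that make arginine from citrulline, and arginase is also found outside the liver, where it serves polyamine and nitric oxide metabolism. The 9 genes described here were chosen by their place in the pathway. No measured value entered that rule, although earlier results of these data were known. They are 9 of the 21938 protein-coding genes of the annotation used. Nags makes N-acetylglutamate, the activator of the carbamoyl phosphate synthetase Cps1, which is the entry step. Otc makes citrulline, and Slc25a15 exchanges ornithine and citrulline across the inner mitochondrial membrane. Ass1 and Asl make argininosuccinate and split it, Arg1 is the cytosolic arginase of the liver, Arg2 is the mitochondrial arginase, and Gls2 is the liver-type glutaminase that releases ammonia from glutamine.

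The assay was ATAC-seq, which marks open chromatin by the sites a transposase can cut. It was run on 8 tissues from male C57BL/6 mice, either fed or deprived of food for 24 h. The tissues were liver, kidney, muscle, brown adipose, white adipose, spleen, heart and lung, which gave 16 libraries, 1 for each tissue and state. Each library was made from tissue pooled from 3 mice, all mice were 12 weeks old on arrival, and the tissues of a state came from the same mice. No tissue had a replicate library in a state, so for a difference between 2 libraries only the counting error could be estimated. Differences between animals and between preparations could not. The exact tests below treat the tissues as the units.

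Each deposited list held 298996 to 299529 rows, of which 149835 to 239804 were distinct regions. Peak strength is given as a percentile, the rank of a region's deposited p-value among the distinct regions of its own library (100 is strongest), with 0 where no peak was listed. The promoter value of a gene is the highest percentile among regions whose summit lay within 3000 bp of one of its annotated starts. The number of tags at a summit was recovered from the deposited fold and p-value, and is also given over the library's background tags, which ranged from 2.80 in fed liver to 12.8 in fed brown adipose and stand for depth. A region belongs to a library's set where its q-value was under 0.01. The labels were checked against markers: the 5 hepatocyte genes averaged the 93.7 and 94.4 percentile in fed and fasting liver, against 44.9 at most elsewhere, and Umod, a kidney tubule gene, stood at 92.0 and 91.6 in kidney and at 25.0 at most elsewhere. In bulk tissue, more cells of a type and more open chromatin per cell cannot be told apart.

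Sequences are shown for the 2 promoters with RefSeq entries among the 4 liver-led genes described first, and for 3 distal regions of Cps1 and Otc that were strong in liver. RefSeq promoter entries (GRCm38.p6) matched 4 of the 9 genes, namely Nags, Otc, Slc25a15 and Ass1. The promoters are the 250 bases before the start on the gene's strand. The distal regions are 200 bases of the plus strand of GRCm38 around a summit. None of the 5 stretches overlaps an annotated exon. Capitals mark matches, on either strand, to 1 of 5 strings searched: TTGCNNAA (C/EBP), CAAAGTCCA (HNF4), TGTTTAC (FOXA), ACANNNTGT (glucocorticoid receptor) and TGACGTCA (CREB).
Nags promoter, chr11:102145263-102145512, plus strand: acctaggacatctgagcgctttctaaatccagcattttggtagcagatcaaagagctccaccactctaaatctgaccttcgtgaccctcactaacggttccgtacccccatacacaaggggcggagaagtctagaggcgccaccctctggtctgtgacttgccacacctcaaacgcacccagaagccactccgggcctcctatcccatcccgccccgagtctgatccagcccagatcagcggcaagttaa
Otc promoter, chrX:10252055-10252304, plus strand: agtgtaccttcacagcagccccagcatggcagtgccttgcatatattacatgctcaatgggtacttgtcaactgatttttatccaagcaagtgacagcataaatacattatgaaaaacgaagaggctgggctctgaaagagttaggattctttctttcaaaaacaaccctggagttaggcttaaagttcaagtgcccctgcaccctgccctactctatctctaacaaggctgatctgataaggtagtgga
Otc upstream region, chrX:10239515-10239714, intergenic: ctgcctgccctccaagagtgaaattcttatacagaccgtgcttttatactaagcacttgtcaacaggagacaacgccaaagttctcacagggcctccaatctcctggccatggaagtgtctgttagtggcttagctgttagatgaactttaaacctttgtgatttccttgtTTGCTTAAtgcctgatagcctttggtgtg
Cps1 upstream region, chr1:67117969-67118168, intergenic: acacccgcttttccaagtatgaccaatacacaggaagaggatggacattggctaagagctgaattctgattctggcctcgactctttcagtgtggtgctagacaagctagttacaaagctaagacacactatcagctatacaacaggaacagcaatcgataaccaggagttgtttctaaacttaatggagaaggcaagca
Cps1 far upstream region, chr1:67103591-67103790: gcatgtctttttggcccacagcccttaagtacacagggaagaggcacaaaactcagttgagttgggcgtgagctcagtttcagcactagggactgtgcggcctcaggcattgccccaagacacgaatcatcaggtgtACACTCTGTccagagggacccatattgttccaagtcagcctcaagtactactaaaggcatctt

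Promoter accessibility divided the 9 genes. For Nags, Cps1, Otc and Arg1, both liver libraries stood above all 14 other libraries. Slc25a15, Asl and Gls2 stood at the 86.9 percentile or higher in all 16 libraries, and Ass1 did so outside the adipose tissues. Arg2 was low in fed liver and high in kidney, spleen and lung. The 4 of 9 genes with liver above all other libraries compare with 7.01% of the 19718 protein-coding genes that had a promoter peak in any library. No member had both kidney libraries above all others (background 4.01%), and no member had the liver and kidney libraries together above the other 12 (background 3.01%). Where only regions that covered an annotated start were counted, the same 4 genes stood highest in liver, against 5.08% of 16766 genes.

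**Figure D1:**
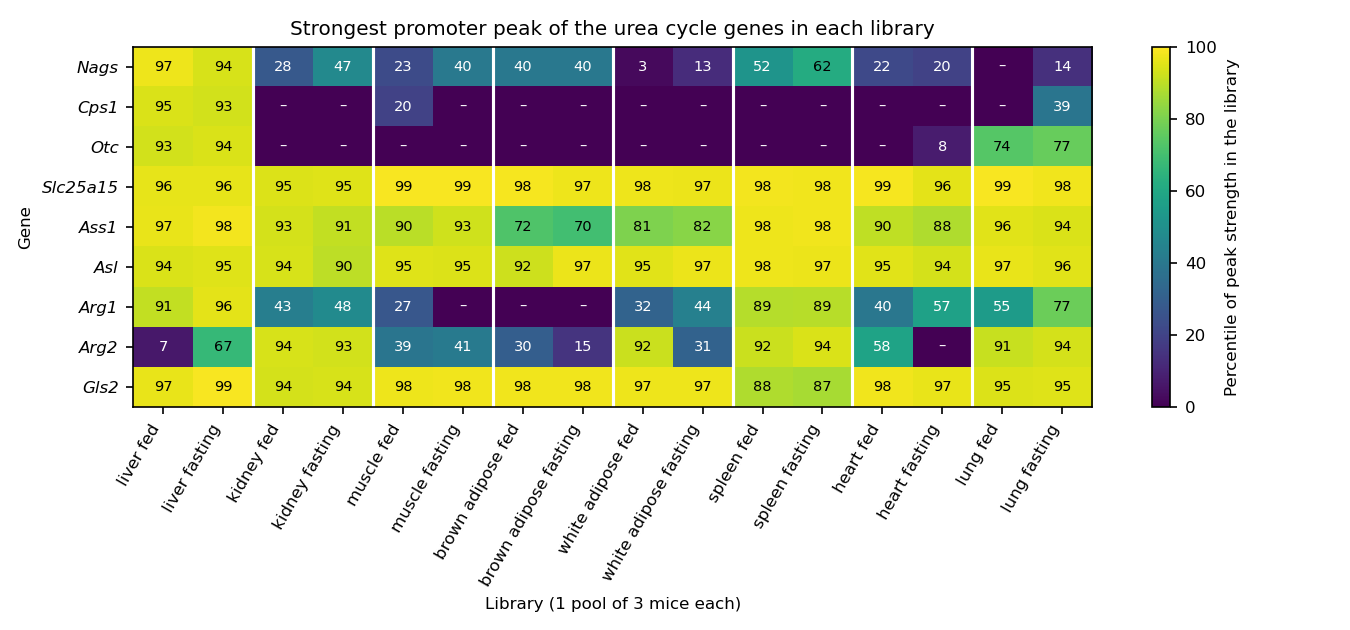
Promoter percentile of each urea cycle gene (rows) in each of the 16 libraries (columns, 1 pool of 3 mice each). Colour and number give the percentile of the strongest peak near a start, and a dash marks no listed peak. Nags, Cps1, Otc and Arg1 are brightest in the 2 liver columns, whereas Slc25a15, Asl and Gls2 are bright in every column.

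Cps1 (chr1:67123026-67231259, plus strand, 1 annotated start) encodes the mitochondrial enzyme that fixes ammonia. Its promoter stood at the 94.5 percentile in fed and 93.2 in fasting liver. It was not listed in kidney, brown adipose, white adipose, spleen or heart. Fed muscle listed a weak peak at the start (19.7 percentile, 18 tags), and fasting lung listed a peak of 27 tags whose summit lay 2597 bp downstream of the start (38.8 percentile). The liver summits lay 20 and 27 bp downstream of the start, with 60 tags in fed and 107 in fasting liver, that is 21.4 and 37.9 times background. The liver values thus did not overlap those of any other tissue.

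Otc (chrX:10252305-10321024, plus strand) lies on the X chromosome, of which male mice carry a single copy. Its promoter stood at 93.3 in fed and 94.3 in fasting liver, with 37 and 73 tags. No peak was listed near the start in kidney, muscle, either adipose tissue, spleen or fed heart, and fasting heart listed 1 at the 7.64 percentile. Lung stood at 73.8 and 76.6, but its summits lay at -824 and -649 bp from the nearest start, whereas those of liver lay at -33 and -35 bp. The lung peaks did not cover a start, and the region at the Otc start was listed in no tissue other than liver.

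Nags (chr11:102145513-102149477, plus strand) stood at 97.4 in fed and 94.1 in fasting liver. The next highest libraries were spleen, at 51.9 fed and 61.6 fasting, then fasting kidney at 47.2. Summit tags in liver were 29.3 times background in the fed and 47.5 times in the fasting state, and in the other 14 libraries they were 6.47 times at most. An antisense transcript, Gm11586, starts 120 bp from an Nags start, and accessibility cannot be assigned to either of them.

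Arg1 (chr10:24915221-24927484, minus strand) encodes the arginase that releases urea. The percentile was 90.8 in fed and 96.0 in fasting liver, with summits 41 and 37 bp downstream of a start. Spleen came close, at 89.1 and 89.4, but with summits at -760 and -850 bp. The margin between fed liver and spleen was small, and Arg1 was no longer highest in liver when regions were ranked by fold enrichment. Kidney stood at 42.9 and 47.7, lung at 54.9 and 77.4, and brown adipose listed no peak. A noncoding transcript of the bidirectional class, Gm36172, starts 135 bp from an Arg1 start.

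Besides the region at the start, 2 regions within 3000 bp upstream of Arg1 were listed, the first of them in liver as well. The strongest peaks of kidney and fasting lung lay in neither, with summits 295 to 298 bp downstream of a start. The region whose summit lay at -850 bp stood at 89.1 and 89.4 in fed and fasting spleen, 37.5 and 75.3 in liver, and 54.9 and 18.7 in lung. A second region, with its summit at -2847 bp, was listed in white adipose (31.7 and 43.6), spleen (17.5 and 78.5), heart (39.8 and 57.4) and lung (43.0 and 30.0). Neither liver, kidney, muscle nor brown adipose listed the second region. Arg1 is also known as a gene of alternatively activated macrophages, and the 5 macrophage markers checked (Adgre1, Csf1r, Cd68, Mrc1 and Lyz2) averaged 81.2 and 75.1 in spleen, 41.7 and 65.7 in white adipose, 20.2 and 67.6 in heart and 44.9 and 39.4 in lung. They averaged 49.3 and 42.2 in liver, 14.9 and 28.1 in muscle and 14.1 and 20.4 in brown adipose. Their part in the Arg1 values was not tested.

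Arg2 (chr12:79130777-79156301, plus strand, 1 annotated start) differed from Arg1 in liver and kidney, but both stood high in spleen (Pearson r = 0.336 over the 16 libraries). Its promoter stood at 93.8 in fed and 93.0 in fasting kidney, 91.9 and 94.3 in spleen, and 91.5 and 93.7 in lung. Their order changed from the fed to the fasting state. In muscle it stood at 39.0 and 41.2, in brown adipose at 29.8 and 15.2, and in liver at 6.63 and 67.1. White adipose was at 92.1 in the fed and 31.3 in the fasting library, and heart at 58.1 in the fed library with no listed peak in the fasting one. By summit tags over background, which do not depend on rank, kidney was highest in both states, at 34.7 and 33.7, against 22.1 at most in the other 14 libraries.

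The other 4 genes were open at their starts in every tissue. Slc25a15 (chr8:22375551-22398597, minus strand) ranged from 94.7 in fed kidney to 99.2 in fasting muscle. A noncoding transcript starts 124 bp from an Slc25a15 start. Gls2 (chr10:128194457-128210004, plus strand) was lowest in spleen, at 88.0 and 86.9, and stood at 96.7 and 99.1 in liver. Asl (chr5:130011258-130029247, minus strand) ranged from 90.0 in fasting kidney to 97.5 in fed spleen, but the strongest peak differed among libraries. Its first start lies 43 bp from that of Crcp, a gene on the other strand. In muscle, white adipose, spleen, lung and fasting heart the peak lay there, so those values cannot be assigned to Asl alone. In liver, kidney, fed brown adipose and fed heart it covered a start inside the gene (chr5:130023786-130024589). In fasting brown adipose its summit lay at -2783 bp, in an intron of Crcp.

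Ass1 (chr2:31470207-31520672, plus strand) was the most variable of these 4 genes. It stood at 96.8 and 98.2 in liver, 97.5 and 98.0 in spleen, 95.7 and 94.4 in lung and 93.4 and 91.0 in kidney. The lowest values were those of the adipose tissues, at 72.5 and 69.6 in brown and 80.7 and 82.2 in white adipose. The position of the summit, examined after the values were seen, also differed among tissues. In the liver and kidney libraries the Ass1 summit lay 103 to 122 bp downstream of the nearest start, whereas in muscle, both adipose tissues, spleen, lung and fed heart it lay between -51 and -17 bp, and in fasting heart at 75 bp. All these summits lay in a single merged region (chr2:31469452-31471022), and fasting heart came nearest to liver and kidney. The share of all genes with such a separation was not computed, so the difference in position is a description only.

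Testing liver and kidney together against the other 6 tissues, by the exact permutation test over the 28 choices of 2 tissues (one-sided, on the means of both states), gave no member with p under 0.05. The smallest p among the members was that of Nags (exact p = 0.107, Benjamini-Hochberg 0.817 over 19718 genes), whose difference was 39.3 percentile points. Cps1 was 42.0 points higher on average in the 2 tissues than in the other 6 (exact p = 0.25), all of it from liver. Cps1 and Otc had no listed promoter peak in kidney, and for such a gene this test cannot give an exact p under 0.25. It therefore could not have called either of them. The smallest p this design allows is 0.0357, 1266 of all genes reached it, and 0 genes passed an adjusted threshold of 0.05. A single tissue out of 8 cannot reach an exact p under 0.05, so no p is given for liver alone.

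Likeness to other genes was measured by the Pearson correlation of the promoter percentile over the 16 libraries, among 17741 protein-coding genes with a promoter peak in at least 4 libraries. The points share libraries and depth, and the values are descriptions. Cps1 was most like H2-Q1 and Tmc1 (r = 0.946 each) and Tat, the tyrosine aminotransferase of hepatocytes (r = 0.942). Otc was most like Mat1a, the liver S-adenosylmethionine synthetase gene (r = 0.995), Nags like Foxh1 and Ppp1r16a (r = 0.905 each), and Arg1 like Qpct (r = 0.939). Mat1a stood at 89.7 and 95.6 in liver but reached 89 in another library. The Otc values used here include the lung peaks that covered no start. Ass1 was most like Zfp652 (r = 0.957), Gls2 like Adora1 (r = 0.975), Slc25a15 like Lap3 (r = 0.894), Asl like Klf13 (r = 0.894) and Arg2 like Ovol1 (r = 0.92). Within the urea cycle, the closest pair was Cps1 and Otc (r = 0.83).

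Beyond the promoters, the gene windows (gene body plus 20 kb on each side) were examined. The Cps1 window held 68 regions of the set in fed and 98 in fasting liver, against 6 at most in any other library. The Ass1 window held 35 and 58 in liver and 32 and 28 in kidney, against 18 at most in the other 6 tissues. For 8 of the 9 genes, all but Arg2, both liver libraries held more regions than any of the other 14, against 5.29% of 20923 gene windows. Among the 50000 strongest regions of each library this held for 4 genes, Cps1, Slc25a15, Ass1 and Asl, against 5.66% of 19078 windows. Over all set regions, the lower liver count led the highest other count narrowly for Otc (7 against 6) and Gls2 (18 against 17). The same held for Nags (14 against 11), Arg1 (16 against 13) and Ass1 (35 against 32). The lead was wider for Cps1 (68 against 6), Slc25a15 (19 against 12) and Asl (21 against 15). The liver sets held 201093 regions in the fed and 166725 in the fasting state, with those of all libraries between 131688 and 225899, so both were in the upper part of the range of set sizes.

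**Figure D2:**
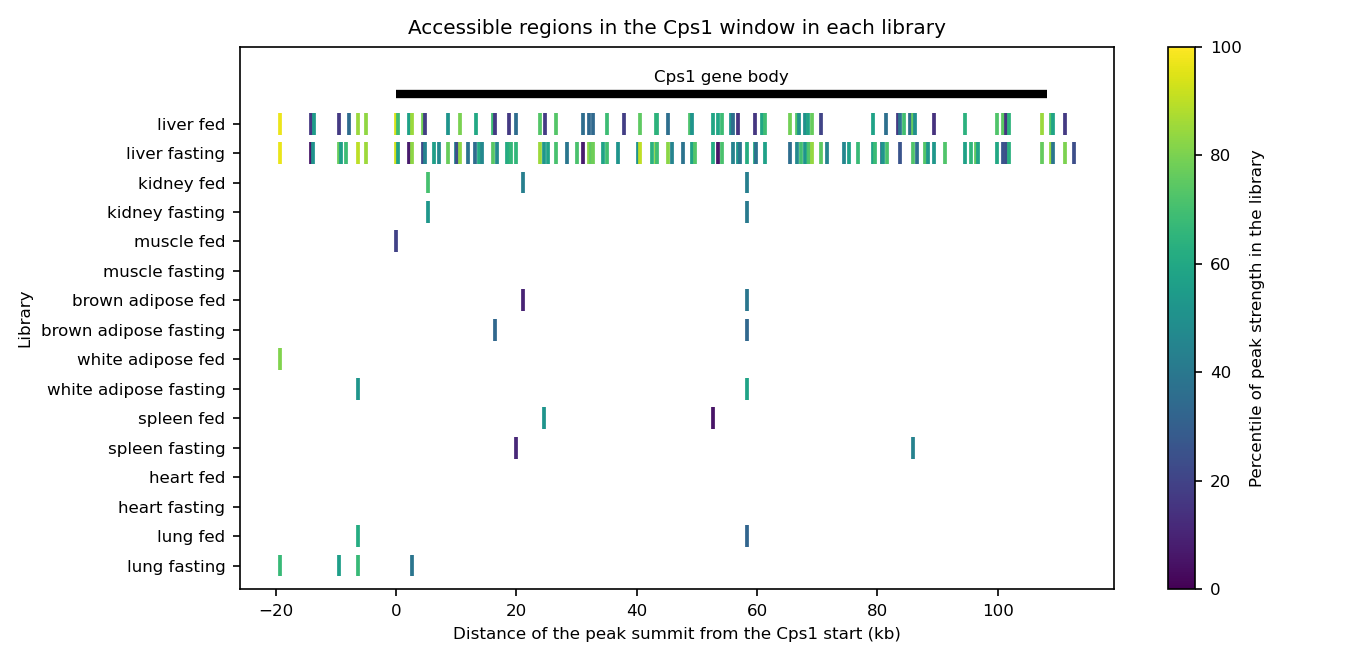
Regions in the Cps1 window. Each tick is the summit of a merged region listed in a library (rows), placed by its distance from the Cps1 start in kb and coloured by its percentile in that library, and the black bar is the gene body. Ticks fill the gene body in the 2 liver rows and are sparse in the other 14, where the sets held 6 regions at most.

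Regions private to liver, present in both liver sets and overlapped by no listed peak of another tissue, made up 65 of the 129 regions that both liver sets shared in the 9 windows. The background was 12.6% of 85132 such regions genome-wide. Cps1 held 36 of the 65, Ass1 9, Arg1 8, Slc25a15 5, Otc 3, Gls2 2, and Nags and Asl 1 each. Arg2 had none. Of the 65 summits, 40 lay in an intron of the gene, 7 in one of its exons and 18 outside it. With q under 1e-06 required in both liver sets, 18 private regions were left.

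The distal Cps1 regions were not equally liver-bound. The far upstream region shown above (chr1:67103461-67104259, 19335 bp before the start, intergenic) was the strongest of the window, at 97.1 in fed and 96.7 in fasting liver. It was also listed in fed white adipose (80.9) and fasting lung (67.2). The upstream region at 4957 bp (chr1:67117832-67118143) was private to liver, at 83.4 and 85.2. In fasting liver the strongest private region inside the gene lay in an intron 40562 bp downstream of the start (chr1:67163391-67163879), at 90.3, against 75.3 in fed liver. In fed liver the strongest one was instead in a coding exon 107296 bp downstream of the start, at 84.9, against 76.4 in fasting liver.

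For Otc, the region at the start itself (chrX:10252046-10252439) was private to liver. So was the upstream region shown above (chrX:10239401-10239966, 12690 bp before the start), at 83.6 and 85.0. Of the Arg1 regions, those with summits 13770 and 13153 bp downstream of the first start, in the intergenic stretch past the end of the gene towards Med23, stood at 74.8 and 80.5 in fed and at 89.1 and 88.1 in fasting liver. The Asl window held a private region in an intron of the neighbouring Crcp (84.9 and 91.9).

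Regions private to kidney were 7 of the 62 that both kidney sets shared in the windows, against 17.3% of 119634 genome-wide. Slc25a15 held 3, Ass1 2, and Cps1 and Arg2 1 each. The strongest was an intergenic region 11553 bp before the Arg2 start (chr12:79118898-79119356), at 81.8 in fed and 86.5 in fasting kidney. Regions present in all 4 liver and kidney sets and in no other tissue's list were 4 of 39, against 7.38% of 52735. They lay 2872 bp before the Nags start, in an intron of Slc25a15 (85.9 and 90.9 in liver, 58.7 and 69.2 in kidney), in an intron of Ass1, and in a noncoding exon of Asl.

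Motif strings were counted in the 200 bases around each summit, as a description. Of the 65 private regions, 8 held the C/EBP string (12.3%), 7 the glucocorticoid receptor string (10.8%) and 3 the FOXA string (4.62%). Over all 10701 liver-private regions the shares were 15%, 7.61% and 6.81%, and over all 85132 regions of both liver sets 11.1%, 6.49% and 4.36%. The HNF4 and CREB strings were in none of the 65, against 1.78% and 0.15% of the liver-private regions. In 32851 promoter entries, the 250 bases before the start held the C/EBP string in 9.56%, HNF4 in 0.384%, FOXA in 3.17%, the glucocorticoid receptor string in 5.84% and CREB in 1.55%, and neither the Nags nor the Otc promoter held any of the 5. The C/EBP string was in the Otc upstream region and the glucocorticoid receptor string in the far upstream region of Cps1, as marked above.

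The fasting comparison asks whether 24 h without food, when amino acids become a fuel and urea production is known to increase, went with a change at these genes. In liver, 8 of the 9 promoters differed by less than 10 percentile points between the states. Arg2 was higher by 60.4 points in fasting. The background was 9.64% of 18073 genes higher by 10 points or more and 13.5% lower by as much. No member was lower by 10 points. In kidney, 1 of the 7 members with a listed peak was higher by 10 points (Nags, 19.4 points, background 5.22% of 16470) and none was lower (background 4.06%). The Nags peaks compared in kidney were different ones, with summits at -62 bp in the fed and 1399 bp in the fasting library, and within 1000 bp of a start the difference was 0.857 points.

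Over all 8 tissues, the exact sign-flip test (two-sided, over all assignments of sign, smallest possible p 0.00781) gave no member with p under 0.05. The smallest p was that of Nags (exact p = 0.0547, Benjamini-Hochberg 1), which was higher in fasting in 6 of 8 tissues, by 8.07 points on average. The fed and fasting Nags peaks compared did not overlap in kidney, muscle, brown adipose, spleen and heart, and lung had a peak in the fasting library only, so most of these differences set different peaks side by side. None of the 19718 genes passed an adjusted threshold of 0.05, and 925 had an unadjusted p under 0.05.

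Tags at the summit gave a measure with a counting interval. In liver, summit tags over background were 1.78 times as high in fasting as in fed for the median of 16099 genes with a peak in both, so the fasting library was more enriched as a whole. Against that, Cps1 was at 1.77 (95% counting interval 1.28 to 2.47), Nags at 1.62 (1.22 to 2.16) and Otc at 1.96 (1.30 to 2.99), with the median of all genes inside each interval. Gls2 was at 2.95 (2.23 to 3.94), Asl at 2.77 (2.06 to 3.77), Arg1 at 2.55 (1.87 to 3.52) and Ass1 at 2.31 (1.81 to 2.98). The last 4 intervals lay above the median of all genes. For Asl, the fed and fasting peaks overlapped, but their summits lay 389 and 26 bp downstream of the nearest start. Its ratio thus compares different summits. Slc25a15 was at 2.14 (1.62 to 2.84), with the median inside. The share of all genes with an interval off the median was not computed, in liver or in the other tissues. The 4 genes are therefore not set against a background. The intervals cover counting error only and no difference between animals.

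The Arg2 difference in liver rested on few tags. The fed library had 10 and the fasting library 18, a ratio of 1.79 with an interval of 0.782 to 4.33, and the median of all genes fell close to its centre. In kidney the ratio was 0.971 (0.774 to 1.22) for Arg2, equal to the median of all genes, 0.971. Ass1 in kidney was at 0.82 (0.688 to 0.977) and Asl at 0.806 (0.673 to 0.965), and only the latter interval lay below the median.

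In white adipose, Arg2 stood apart from the other members. Its summit had 162 tags in the fed and 18 in the fasting library, 16.2 and 3.06 times background, a ratio of 0.19 (0.11 to 0.309) against a median of 0.771 over 15593 genes. It was the 1 member of 7 lower by 10 points there (background 8.81% of 16975), and Nags and Arg1 were the 2 higher by 10 points (background 9.34%). With tags scaled to the background tags of the shallowest library, which leaves differences in enrichment, Arg2 was at 85.5 in fed white adipose and not listed in fasting. Beside it, macrophage markers averaged 41.7 in the fed and 65.7 in the fasting library, spleen B cell markers 32.8 and 30.7, and white adipose markers 74.4 and 81.8. Their part in the Arg2 values was not tested.

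**Figure D3:**
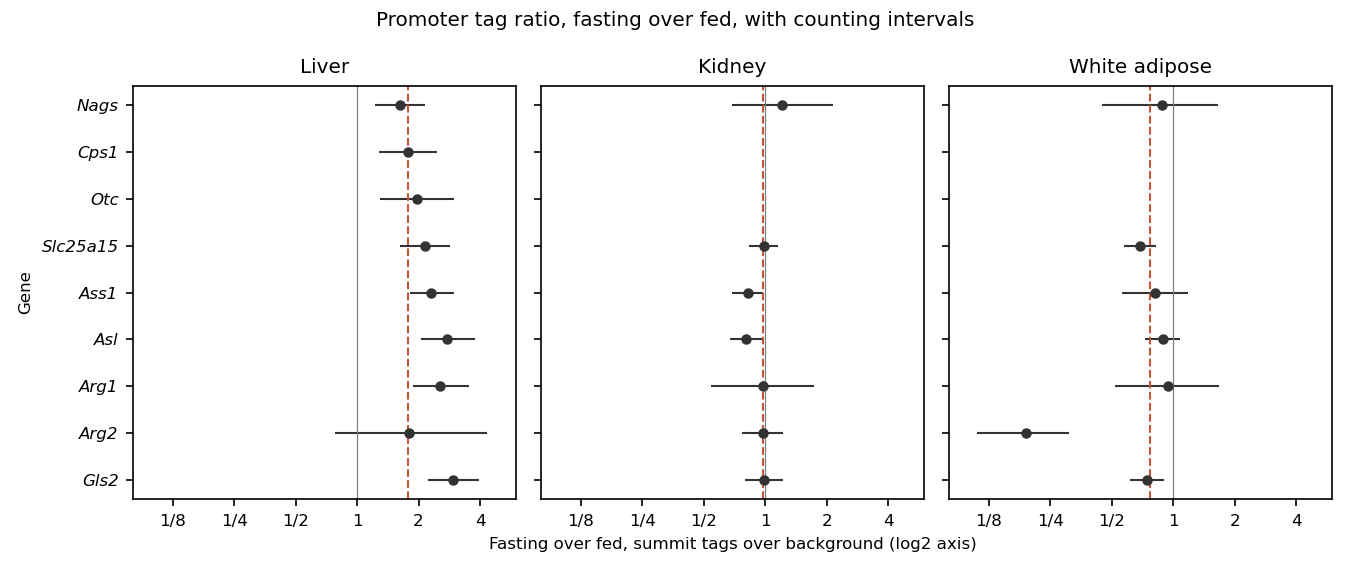
Summit tags over background, fasting over fed, at the promoter of each gene in liver, kidney and white adipose (log2 axis). Points are ratios of 2 libraries, bars are 95% counting intervals, the dashed line is the median of all genes in that tissue and the grey line marks no change. Arg2 in white adipose, at 0.19, lies farthest from its dashed line.

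Fasting liver held more regions around every urea cycle gene, a comparison added after the values were seen. Counts of set regions in the gene window went from 68 to 98 for Cps1, from 35 to 58 for Ass1, from 18 to 22 for Gls2 and from 16 to 19 for Arg1. The smallest differences were those of Otc (7 and 8) and Slc25a15 (19 and 20). In all 9 windows the fasting count was the higher, against 35.6% of 20218 gene windows, although the fasting set was the smaller one. Among the 1381 genes whose liver promoters also stood above all other libraries, 43.2% had more regions in fasting. In kidney, 3 of the 8 windows with a region had more in fasting, against 41.5% of 18978.

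**Figure D4:**
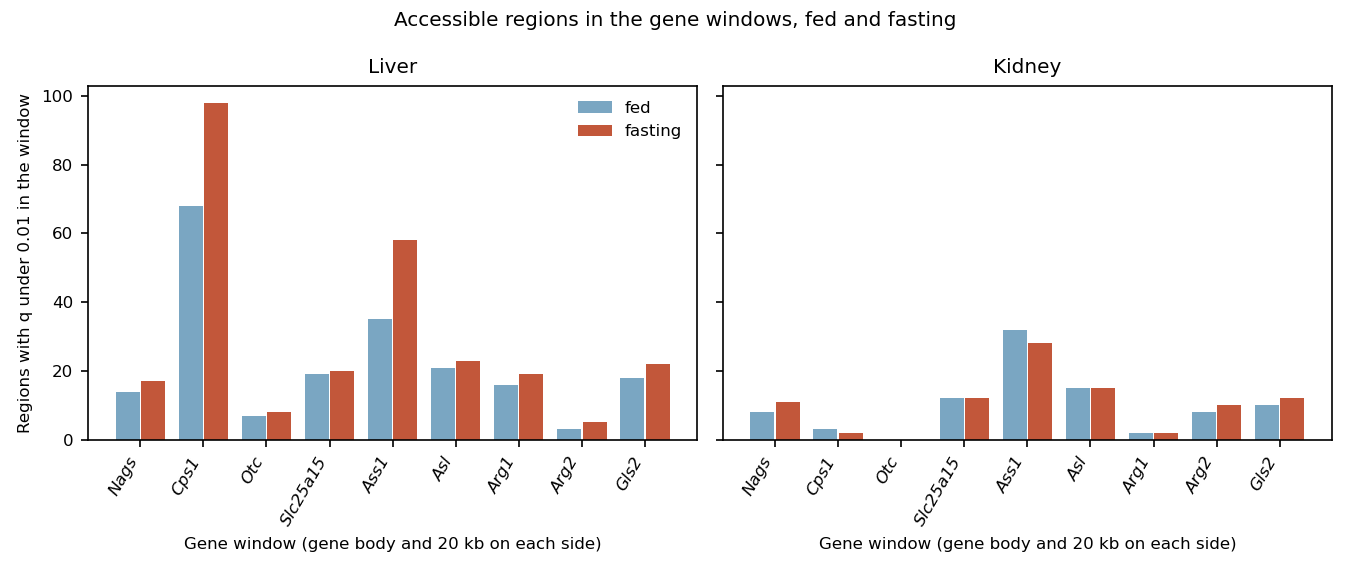
Number of regions with q under 0.01 in each gene window, in fed (blue) and fasting (red) liver (left) and kidney (right), 1 library per bar. In liver the fasting bar is the higher for all 9 genes, and Cps1 (68 and 98) and Ass1 (35 and 58) hold the most.

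The higher counts held under other thresholds for most of the genes. Over the 9 windows together there were 201 regions in fed and 270 in fasting liver, while all gene windows together had 231286 and 214964. Among the 50000 strongest regions of each library the counts were 50 and 73, and 8 of 9 genes had more in fasting (background 30.2%), with Arg2 the exception. At q under 1e-06 they were 80 and 138, with 8 of 9 genes higher, but there the background was 53.7%. Of the 129 regions in both liver sets, 37 were higher in fasting by 10 percentile points or more and 14 were lower, against 17.9% and 19.1% of 85132 genome-wide.

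The wider pathway was represented by 24 genes of amino acid and nitrogen handling. In 7 of them both liver libraries stood above all others, against 7.01% of all genes. They were Tat (87.2 and 89.1 in liver, 31.7 at most elsewhere), Agmat (89.7 and 92.0, with kidney next at 75.4 and 71.8), Slc38a4, an amino acid transporter (92.7 and 90.4), Car5a, the mitochondrial carbonic anhydrase that supplies bicarbonate to Cps1 (96.9 and 96.3), Slc25a13, the liver aspartate-glutamate carrier citrin (95.1 and 94.5), Slc25a12 and Gpt2. The last 4 exceeded the next tissue by a few points or less. None of the 24 was above all others in kidney (background 4.01%). None differed by 10 points between states in liver, where 9.64% of all genes were higher and 13.5% lower by as much. Slc38a4 was 10.8 points higher in fasting kidney, the 1 gene of the list to be so (background 5.22%), and none was lower (background 4.06%). In 15 of the 24 windows fasting liver held more regions, against 35.6% of all gene windows.

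Among 10 regulators and hormone-response genes linked to the urea cycle, both liver libraries stood above all others in 4 (background 7.01%). They included Hnf4a, Foxa2 and Gcgr. The nuclear receptor Hnf4a stood at 99.3 and 99.0 in liver and 87.4 and 95.0 in kidney. Foxa2 stood at 95.8 and 95.1, and the glucagon receptor Gcgr at 94.6 and 97.7. Cebpb, a factor induced in fasting, was 10.4 points higher in fasting liver (87.2 and 97.6), and Fgf21, a fasting hormone of the liver, 20.5 points (69.6 and 90.2). These were the 2 of 10 higher by 10 points there (background 9.64%), and none was lower (background 13.5%). Gcgr was 13 points higher in fasting kidney (66.8 and 79.7), the 1 gene of 10 to be so (background 5.22%), and none was lower (background 4.06%). With 10 genes and 1 library per state, these counts are descriptions only.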

How the data were processed

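The 16 ATAC-seq peak lists, 1 per tissue and state, were used. The authors trimmed reads, aligned them with Bowtie2 to GRCm38, removed unmapped, duplicate and mitochondrial reads, shifted for transposase binding, called peaks with MACS2 and dropped blacklisted regions. Tool versions are not given in the sources used here. The authors deposited a fold enrichment (a ratio), a −log10 p-value and a −log10 q-value per peak, with positions, and capped each list (298996 to 299529 rows). Depth was therefore read from background tags.

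Rows with the same region were merged to the smallest p. Tags were solved from fold and p under a Poisson model (98.4 to 100% of rows whole within 0.001). Genes were those of GENCODE vM21. Tests were exact permutations in Python 3.11.15 with numpy 2.4.6 and scipy 1.17.1, adjusted by Benjamini-Hochberg, and checked on data with known answers. Members and lists were chosen with earlier results of these data known. Named genes were all members, and from the wider pathway and factor lists those highest in liver or kidney or differing by 10 points between states. Alternatives covered the start window, ranking, thresholds, depth, states and window size. The tissue markers were 5 genes per list. Some listed genes and strings are not reported here.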

Additional observations from a re-analysis of the deposited data

Results flagged for a closer look

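The promoter percentile of 3 members moved in opposite directions between the states in different tissues, by 10 points or more each way. The differences were between single libraries and were not tested. Arg2 was higher by 60.4 points in fasting liver and lower in fasting white adipose (-60.9 points), 121 points apart, but the liver value rests on 10 and 18 tags. Arg1 was 22.5 points higher in fasting lung and lower in fasting muscle (-27.1 points), 49.7 points apart, where fed muscle had 19 tags and the fasting library none listed. The lung value sets different peaks side by side, with summits at -738 bp in the fed and 295 bp in the fasting library, and at the region with its summit at -850 bp lung was lower in fasting (54.9 and 18.7). Cps1 was 38.8 points higher in fasting lung and lower in fasting muscle (-19.7 points), 58.5 points apart, and each difference rests on 1 weak peak, of 27 tags in lung and 18 in muscle.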

How the results depend on the processing

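The count of 4 members highest in liver was 3 when ranked by fold enrichment (Arg1 was lost) and 6 in the fasting libraries alone. The 0 members highest in kidney became 1, Arg2, when every deposited row was ranked, in the fed libraries alone, and by summit tags over background. The single member higher by 10 points in fasting liver became 0 among the 50000 strongest regions and 2 at 5 points, and by fold enrichment 2 members were lower. In kidney the 1 member became 0 within 1000 bp of a start, among the 50000 strongest regions, for regions covering a start and at 20 points. Liver-private regions went from 65 to 18 at q under 1e-06, and kidney-private regions from 7 to 11 with 50 kb extensions. Neither exact test called a member under any alternative. The liver and kidney test could not have called a gene without a listed kidney peak. Regions covering a start, tags over background and the thresholds for window counts were chosen after seeing the data. The cause of these changes was not tested. Each tissue and state has 1 library, so nothing between fed and fasting is tested against differences between animals, and intervals cover counting error only. The lists were capped, so an unlisted peak may be weak or closed, which cannot be told apart. The fasting test pairs the libraries of a tissue, and no block by replicate could be fitted with 1 library per group.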
